A study of Rattus norvegicus with 9 samples.

Results

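The cytosolic ribosomal protein genes encode the proteins of the cytoplasmic ribosome, and their transcripts were followed in the ipsilateral lumbar spinal cord of rats with a nerve injury. Members were chosen by name: loci called Rpl or Rps with a number, the stalk genes Rplp0, Rplp1 and Rplp2, and Rpsa. The rule matched 88 loci with 80 names, and where a name stood at more than 1 locus, as 6 names did, the locus with the highest mean level was kept. A further 6 names, Rpl30l1, Rpl35a, Rpl38, Rpl39l, Rpl3l and Rps29, had a mean below 1 TPM and were left out. Of these, Rpl30l1, Rpl35a and Rpl38 were listed at 0 in every sample and Rps29 at a mean of 0.35 TPM. Whether such listings mean that the transcripts were absent was not tested. This gave 74 members of the 34890 loci in the table, with 43 of the large subunit, 28 of the small subunit and 3 of the stalk. TPM, the unit of the table, is scaled for transcript length and then to the same total in every sample, so levels can be compared between genes.

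All rats were wild-type Sprague Dawley, and 3 samples were sequenced in each of 3 groups. JA rats had a sham operation and SNI rats a spared nerve injury, in which branches of the sciatic nerve are ligated and cut, and both were given saline by mouth. PLM rats had the same injury and received the middle dose of the study, paeoniflorin at 20.65 mg/ml together with liquiritin. The infusions ran for 21 days. Paeoniflorin is a monoterpene glycoside of peony root and liquiritin a flavonoid glycoside of licorice. The liquiritin concentration is labelled 3.98, 3.99 and 3.100 mg/ml for PLM replicates 1, 2 and 3, and 3.98 mg/ml is the concentration in the study's methods. Because TPM does not preserve depth, the depth behind the values is unknown and counting error cannot be given. The labels call the samples biological replicates, so the p-values measure the spread between samples from 3 rats a group.

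A ribosome is built of a small subunit, which reads the mRNA, and a large subunit, which joins amino acids and carries a flexible stalk that recruits the elongation factors. Cells make the proteins of both subunits in nearly equal numbers, and protein left over is degraded. The mRNAs of most of these proteins begin with a C followed by a run of pyrimidines (C or T in the DNA), the terminal oligopyrimidine tract, through which the mTORC1 pathway and the binding protein Larp1 control their translation. Neurons and glia both depend on ribosomes, and neurons also carry them into dendrites and axons.

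Of the members, 59 matched a gene of the RefSeq promoter table (build GRCr8), and the 20 bases on each side of its annotated start were read. A run of at least 8 pyrimidines lay in this window in 40 of the 59 (67.8%), against 15.5% of all 27457 promoters in the table. A C followed by 4 pyrimidines stood exactly at the annotated start in 20 of the 59 (33.9%), against 2.63% of all promoters. The letters CTTTC, which can be part of such a run, were found on the gene's own strand in 44.1% of the members' windows and 5.04% of all, and on the opposite strand in 1.69% and 4.93%. Either strand held them in 45.8% of the members' windows and 9.79% of all. The windows of 9 members described below are printed 5′ to 3′ on the gene's strand, because they hold the feature the family shares or, for Rpl7l1, Rpl13 and Rpl41, carry the results that stood apart. Capitals mark the longest pyrimidine run, and the annotated start is base 21 of each.
Rplp0, chr12:46718371-46718410, minus strand: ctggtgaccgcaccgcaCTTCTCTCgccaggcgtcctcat
Rplp1, chr8:71290853-71290892, minus strand: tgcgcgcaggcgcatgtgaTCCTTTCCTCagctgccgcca
Rpl37, chr2:55942925-55942964, plus strand: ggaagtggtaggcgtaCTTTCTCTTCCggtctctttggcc
Rpl35, chr3:43165902-43165941, minus strand: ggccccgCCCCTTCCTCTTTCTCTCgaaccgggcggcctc
Rps27, chr2:177964587-177964626, minus strand: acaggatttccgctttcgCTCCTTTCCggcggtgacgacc
Rps3a, chr2:173827023-173827062, minus strand: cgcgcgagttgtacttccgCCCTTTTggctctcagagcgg
Rpl13, chr19:68062494-68062533, plus strand: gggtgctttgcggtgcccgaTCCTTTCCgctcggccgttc
Rpl41, chr7:1563478-1563517, minus strand: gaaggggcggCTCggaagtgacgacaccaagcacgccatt
Rpl7l1, chr9:21695698-21695737, plus strand: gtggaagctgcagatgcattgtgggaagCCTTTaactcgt
In the first 7 of these the run covers the annotated start, and in Rpl35 it is 18 bases long. The windows of Rpl41 and Rpl7l1 hold no run longer than 3 and 5 bases, which says only that these letters are not in this window. The 59 genes lie on 17 chromosomes, with 11 on chromosome 1.

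The members were among the most abundant nuclear transcripts of the cord. Over the 9 samples their median mean level was 634 TPM, against 9.45 TPM for all loci of at least 1 TPM, and 66 of the 74 had a mean of at least 100 TPM. Rpl37 had the highest level of the family in all 9 samples, with a mean of 2303 TPM. Rpl41, which encodes one of the shortest proteins known, and Rplp1, a stalk protein, followed at 1872 and 1710 TPM and changed places between samples. Rpl26 and Rpl35, whose proteins sit near the exit of the tunnel for the new chain, came next at 1475 and 1452 TPM. In all, 15 members exceeded 1000 TPM. These ranks use only the kept locus of each name, and Rpl21, at 1191 TPM, had a second locus at 771 TPM. The median level was 558 TPM for large subunit members and 698 TPM for small subunit members. Levels also differed between partners: Rplp2, which pairs with Rplp1 in the stalk, was at 108 TPM.

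The lowest levels were in paralogs and in loci with an unusual listing. Rpl10l, a paralog of Rpl10 known from testis, had a mean of 2.40 TPM, against 573 TPM for Rpl10. Rps27l, a paralog induced by p53 in other tissues, had 45.8 TPM against 1286 TPM for Rps27. Rpl7l1 had 42.9 TPM, against 83.4 TPM for Rpl7. Rpl13, Rpl8 and Rps20 encode core proteins that each ribosome needs, yet the table lists them at a mean of 4.56, 4.77 and 50.6 TPM. Whether these loci, or those of Rpl7 and Rplp2, hold all of their genes' reads was not tested, so the comparisons with partners and paralogs are of listed levels only.

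Together the members took about 5% of all TPM. Their share was 4.90, 4.84 and 5.58% in JA replicates 1 to 3, 4.69, 4.69 and 5.07% in SNI, and 5.35, 5.29 and 4.84% in PLM. The mean share ± SD over 3 samples was 5.11% ± 0.414 for JA, 4.82% ± 0.216 for SNI and 5.16% ± 0.276 for PLM, and all 3 groups overlapped. In both subunits SNI had the lowest mean: the large subunit share was 2.75% ± 0.206 for JA, 2.60% ± 0.120 for SNI and 2.82% ± 0.166 for PLM, and the small subunit share was 2.10% ± 0.193, 1.98% ± 0.0859 and 2.10% ± 0.101. The stalk share was 0.259% ± 0.0158 for JA, 0.236% ± 0.0133 for SNI and 0.240% ± 0.0084 for PLM.

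The samples differed in what the rest of the TPM held. The 13 protein genes of the mitochondrial genome took 25.3 to 32.8% of TPM in JA, 23.7 to 26.1% in SNI and 31.3 to 32.8% in PLM. Without them, the share of the members ranged from 6.56 to 7.90% in JA, 6.15 to 6.68% in SNI and 7.11 to 7.96% in PLM, so that PLM and SNI no longer overlapped. The typical locus moved as well: the median log2(TPM + 1) over loci of at least 1 TPM was 3.38 ± 0.0827 for JA, 3.50 ± 0.0310 for SNI and 3.25 ± 0.0622 for PLM. The median of the members minus this median was 5.67, 5.72 and 5.84 in SNI replicates 1 to 3 and 6.25, 6.13 and 5.98 in PLM, and the groups did not overlap. In JA it was 5.83, 5.87 and 6.14, which overlapped both. For this reason each comparison is given as deposited and also median-centred, with each sample's median over the loci tested subtracted.

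**Figure D1:**
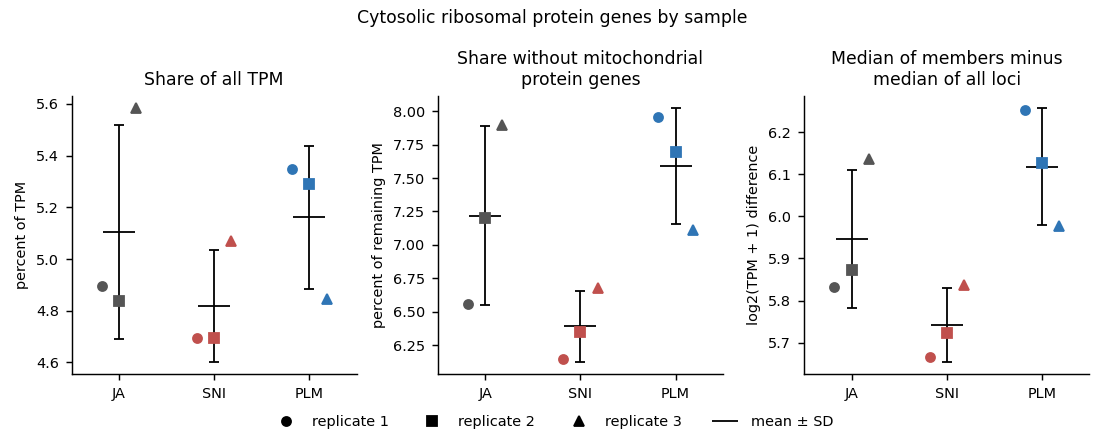
Share of TPM on the 74 cytosolic ribosomal protein genes in each sample (left, percent), the same after removal of the mitochondrial protein genes (middle, percent), and the median of these genes minus the median of all loci of at least 1 TPM (right, log2 units). Points are samples, and the line and bar are the group mean ± SD. SNI and PLM overlap on the left and not in the other panels, and JA replicate 3 is the highest JA sample in all of them. The axes do not start at 0.

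Single samples stood apart. JA replicate 3 had the highest level of the 3 JA samples for 67 of the 74 members, SNI replicate 3 of the SNI samples for 56, and PLM replicate 3 the lowest of the PLM samples for 63. JA replicate 3 also had 7602 TPM summed over 5 Schwann cell markers, against 679 and 122 TPM in the other JA samples, and 11876 TPM of 4 blood cell markers, against 5676 and 5387 TPM. The Schwann cell markers ranged from 550 to 4378 TPM in SNI and from 266 to 3219 TPM in PLM. All 12 astrocyte, 14 neuron, 10 oligodendrocyte and 10 microglia markers had a mean of at least 1 TPM, so the defining cells of spinal cord were detected. The oligodendrocyte markers summed to 49148 to 56665 TPM in JA, 46459 to 48691 TPM in SNI and 50197 to 51263 TPM in PLM, with SNI below both other groups. Gene by gene the direction was mixed: as deposited, 4 of the 10 were positive and 6 negative in PLM against SNI, with a median of −0.11. In SNI against JA 9 were negative as deposited. After median-centring, all 10 had positive log2 values in PLM against SNI and negative ones in SNI against JA. The centred median of the 10 microglia markers was 0.28 in PLM against SNI, with 9 positive and 1 negative. In SNI against JA it was −0.19, with 2 positive and 8 negative. The neuron markers summed to 3027 to 5818 TPM in JA, 5714 to 7233 TPM in SNI and 4871 to 5653 TPM in PLM, without overlap between SNI and PLM. The 12 astrocyte markers summed to 1965 to 3952 TPM in JA, 3444 to 3831 TPM in SNI and 1610 to 1979 TPM in PLM, and 11 of the 12 passed as lower in PLM than in SNI as deposited, against 13.6% of all loci, or 8 after median-centring, against 0.685%. The blood markers summed to 4117 to 7265 TPM in SNI and 7987 to 11176 TPM in PLM. The part of these differences in the results on ribosomal genes was not tested, and in bulk tissue fewer cells of a type and less RNA per cell cannot be told apart.

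Treated and untreated injured rats were compared first. As deposited, the median log2 fold change of the members, PLM against SNI, was 0.0725, while the median over all 15474 loci tested was −0.21, and 56 of the 74 members had a positive value. Without any 1 sample the members' median was 0.049 to 0.11, with 48 to 65 positive values. Rpl13 and Rpl7l1 were lower in PLM at an adjusted p under 0.05 (limma on log2(TPM + 1), Benjamini-Hochberg over all loci), and no member was higher. Of all loci, 13.6% were called lower and 0.246% higher, and the 2 members called lower are 2.70% of the family. By unadjusted p under 0.05, 11 members were higher and 2 lower, against 1.28% and 35.8% of all loci. The count of 11 was 2, 6 and 15 without SNI replicates 1, 2 and 3 and 2, 3 and 16 without PLM replicates 1, 2 and 3, where 0.994 to 1.35% of all loci were higher. All PLM samples lay above all SNI samples in 8 members and below them in 2, against 1.59% and 41.9% of all loci. Replicate 3 of each group set the first count: it was 38 without PLM replicate 3 and 28 without SNI replicate 3, against 3.12% and 3.22% of all loci, and 8 to 10 without any other sample, against 2.66 to 3.37%. Members below numbered 2 to 4, against 44.8 to 52.6%, or 6 without SNI replicate 2, against 52.8%. The 8 are Rpl21, Rpl26, Rpl39, Rpl41, Rpl9, Rps27a, Rps3a and Rps6, of which Rpl9 and Rps6, the target of the S6 kinases, were named after their values were seen.

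After median-centring, the median log2 fold change of the members was 0.32, against 0.04 over all loci, and 69 of the 74 values were positive. All PLM samples lay above all SNI samples in 56 members (75.7%), against 14.1% of all loci, and in none below, against 9.73%. At an unadjusted p under 0.05, 57 members were higher and 0 lower, against 10.0% and 6.89% of all loci, and 39 to 63 were higher without any 1 sample, against 6.59 to 11.1%. No member passed at an adjusted p under 0.05 in limma in either direction, where 0.129% of all loci were called higher and 0.685% lower. The smallest adjusted p among the members was 0.0743 for Rps3a. Both subunits and the stalk had positive values: the centred median was 0.34 for the 43 large subunit members, with 30 not overlapping, 0.30 for the 28 small subunit members, with 23, and 0.27 for the 3 stalk members, with 3.

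For comparison with other abundant transcripts, over the 1070 other loci of at least 100 TPM, the centred median was 0.11, and 277 had all PLM samples above all SNI samples. Leaving out each of the 6 samples in turn kept the centred median of the members between 0.27 and 0.39 and the count of members with all PLM samples above all SNI samples between 56 and 65, with 0 or 1 below. With 5 samples groups separate more easily, and 17.9 to 24.0% of all loci had PLM above SNI in these settings. Members were also set side by side by their start windows: the centred median was 0.32 for the 40 with a run of at least 8 and 0.34 for the 19 with a shorter one, a difference that was not tested.

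**Figure D2:**
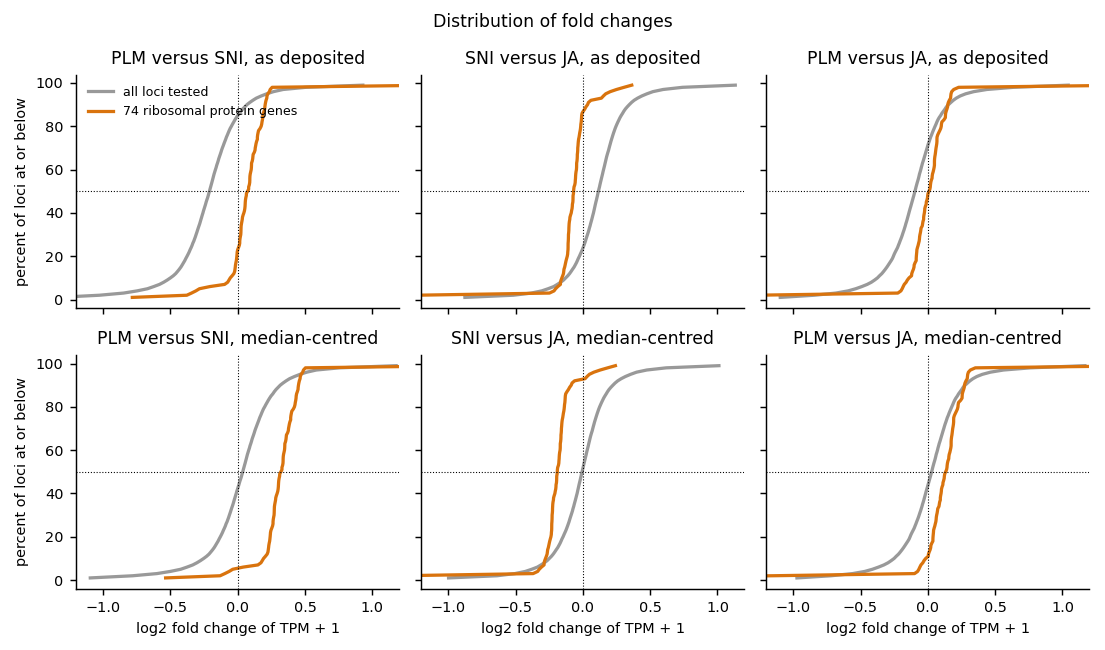
Cumulative distribution of log2 fold changes of TPM + 1 for the 74 ribosomal protein genes (orange) and all loci tested (grey), for 3 comparisons (columns) as deposited (top) and median-centred (bottom). Over most of its height the orange curve lies to the right of the grey one in PLM versus SNI and to its left in SNI versus JA. The horizontal axis ends at 1.2 log2 units, beyond which Rpl30, Rpl39 and Rpl8 lie.

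The members with the larger values in PLM against SNI were known parts of both subunits. Rpl41 had 1675, 1499 and 1865 TPM in SNI and 2130, 1971 and 1942 TPM in PLM. All PLM samples were above all SNI samples, and the log2 fold change was 0.27 ± 0.09 (SE) as deposited, with an adjusted p of 0.0892 in limma, and 0.51 ± 0.11 after centring. Rpl26 had 1337, 1373 and 1413 TPM in SNI and 1594, 1594 and 1475 TPM in PLM, with log2 fold changes of 0.18 ± 0.06 as deposited and 0.42 ± 0.08 centred. Its SNI samples lay close together and below every other sample but JA replicate 2, at 1407 TPM. Rps3a, a small subunit protein that also binds initiation factors, had 307, 349 and 334 TPM in SNI and 378, 379 and 379 TPM in PLM, which were nearly equal. Its centred log2 fold change was 0.45 ± 0.08, with a limma adjusted p of 0.0743. Rps27a, whose protein is made as a fusion with ubiquitin, had 1167, 1093 and 1226 TPM in SNI and 1404, 1322 and 1252 TPM in PLM, a centred log2 fold change of 0.44 ± 0.10.

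Rps25, which some viral and cellular internal initiation sites need, had 841, 907 and 982 TPM in SNI and 1159, 1098 and 974 TPM in PLM. Its groups overlapped as deposited through replicate 3 of each, and its log2 fold change was 0.24 ± 0.09, or 0.49 ± 0.12 centred. Rpl36 showed the same overlap, at 573, 591 and 647 TPM in SNI and 778, 712 and 644 TPM in PLM. Rpl35 had a log2 fold change of 0.21 ± 0.09 and Rpl17, which lines the tunnel exit, 0.22 ± 0.11, with adjusted p-values of 0.142 and 0.208 in limma. Rpl37, the most abundant member, had 2125, 2177 and 2356 TPM in SNI and 2602, 2524 and 2163 TPM in PLM, so its groups overlapped and its log2 fold change was 0.13 ± 0.09.

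The stalk genes differed among themselves. Rplp0, the base of the stalk and a common reference gene for qPCR, had 634, 594 and 623 TPM in SNI and 631, 625 and 595 TPM in PLM. Its log2 fold change was 0.00 ± 0.05 as deposited and 0.25 ± 0.07 centred. Rplp1 had 0.02 ± 0.07 and 0.27 ± 0.09, and Rplp2 0.15 ± 0.06 and 0.39 ± 0.08. Other reference genes of the family ranged likewise: as deposited, Rps18 had 0.03 ± 0.07, Rpl13a 0.15 ± 0.07 and Rpl32 0.13 ± 0.09, and after centring 0.28 ± 0.09, 0.39 ± 0.10 and 0.38 ± 0.11. Rpsa, known also as the laminin receptor precursor, had 0.01 ± 0.06 and 0.26 ± 0.07. The X-linked Rps4x had 0.10 ± 0.07 and 0.35 ± 0.09. Rpl36a, also on the X chromosome, had −0.06 ± 0.06 and 0.19 ± 0.08. Centring adds the same amount to every gene, so the values that changed sign were those just below 0.

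The 2 called members are not typical of the family. Rpl7l1, a relative of Rpl7 linked to ribosome assembly, had 48.0, 48.8 and 45.9 TPM in SNI and 35.2, 41.1 and 38.6 TPM in PLM. Its groups did not overlap, and its log2 fold change was −0.31 ± 0.07 with an adjusted p of 0.0439 (limma). Rpl13 was listed at 5.67, 5.19 and 5.77 TPM in SNI and 4.27, 3.88 and 3.72 TPM in PLM, with −0.40 ± 0.09 and an adjusted p of 0.0399 (limma). Centred, the values were −0.06 ± 0.06 and −0.15 ± 0.10, with adjusted p-values of 0.673 and 0.50 in limma, so neither call held. Without any 1 of the 6 samples neither passed, though the log2 fold changes as deposited, −0.25 to −0.36 for Rpl7l1 and −0.37 to −0.45 for Rpl13, stayed near those of all samples. Rps27l had −0.35 ± 0.22 as deposited and did not pass.

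**Figure D3:**
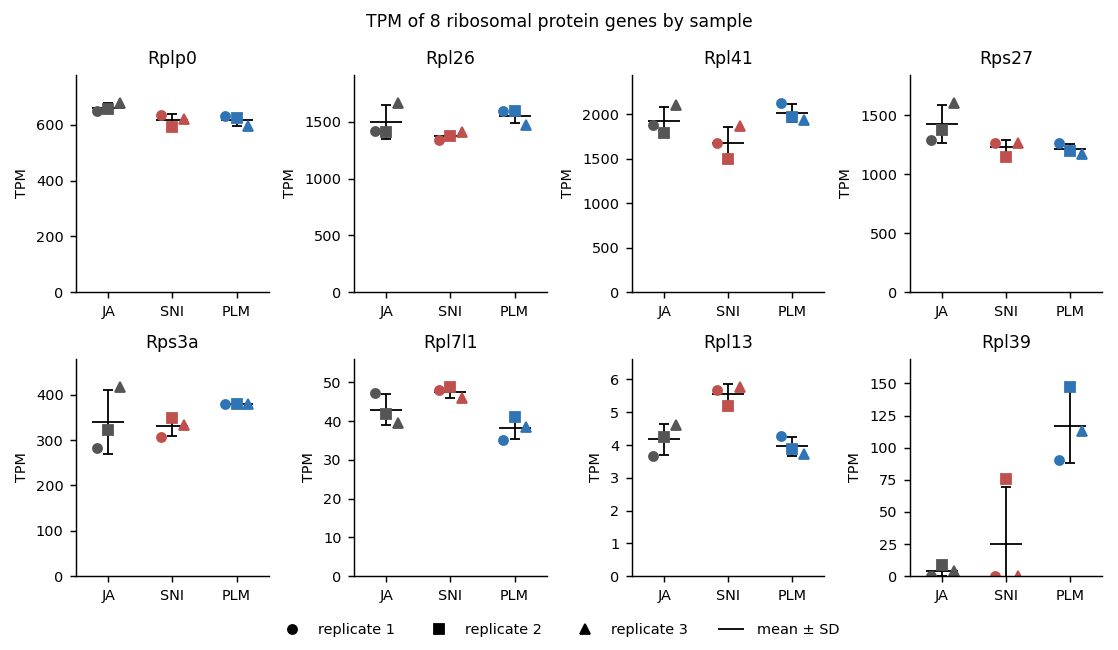
TPM of 8 ribosomal protein genes in each of the 9 samples, with points for samples and the line and bar for the group mean ± SD (n = 3), on axes that start at 0. Rpl26, Rpl41 and Rps3a are higher in every PLM sample than in any SNI sample, Rpl7l1 and Rpl13 are lower, and Rpl39 is listed at 0 in 3 samples.

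The injury itself was compared next, as SNI against JA. As deposited, the members' median on the log2 scale was −0.0683, against 0.12 over all 15557 loci tested, and 64 of the 74 values were negative, or 41 without JA replicate 3 and 57 to 69 without any other sample. No member passed at an adjusted p under 0.05 in limma, and 0% of all loci did. By unadjusted p under 0.05, 2 members were higher (Rpl12 and Rpl13) and 1 lower (Rpl8), against 6.11% and 0.990% of all loci. For Rpl12 this direction held for its own locus only, since summed with a second locus described below every SNI sample was lower than every JA sample. Without any 1 sample the counts by unadjusted p were 0 to 2 higher and 0 to 3 lower, against 2.30 to 16.5% and 0.781 to 1.33% of all loci. All SNI samples lay below all JA samples in 6 members, against 1.66% of all loci, and above them in 1, Rpl13, against 12.1%. The count of 1 was 5 without JA replicate 3, against 15.8% of all loci, 3 without any 1 SNI sample, against 15.9 to 23.3%, and 1 or 2 without another JA sample, against 16.5 and 36.0%. The count of 6 lower was 27 without SNI replicate 3, 18 without JA replicate 2 and 10 without SNI replicate 1, against 3.44, 3.44 and 3.15% of all loci, and 6 to 8 without any other sample, against 3.56 to 4.83%. Rps27 had 1289, 1377 and 1604 TPM in JA and 1265, 1149 and 1265 TPM in SNI, a log2 fold change of −0.21 ± 0.10. Rplp0 had 649, 659 and 679 TPM in JA, all above SNI, and −0.10 ± 0.07. Rpl17 had 780, 764 and 965 TPM in JA and 706, 659 and 725 TPM in SNI, with −0.26 ± 0.11. Each had an adjusted p of at least 0.61 in limma.

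After centring, the median of the members was −0.19, against −0.01 over all loci. The groups did not overlap in 21 members, against 10.9% of all loci, and in all 21 (28.4%) SNI was the lower group, against 6.87% of all loci. At an unadjusted p under 0.05, 7 members were lower and 0 higher, against 3.13% and 1.70%. The count of 7 was 20, 1 and 2 without JA replicates 1, 2 and 3 and 1, 0 and 8 without SNI replicates 1, 2 and 3, against 1.89 to 4.63% of all loci, so it depended on single samples. At an adjusted p under 0.05 in limma 0 members and 0% of all loci passed. The 21 included all 3 stalk genes, Rpl41, Rpl26, Rps18 and Rpsa. Without JA replicate 3, the median of the members was −0.01 as deposited and −0.10 centred, with 23 members then below and 2 above all remaining JA samples after centring, against 12% and 8.6% of all loci. The centred count of 21 was 50 without SNI replicate 3 and 43 without JA replicate 1, against 12.5% and 14% of all loci, and 22 to 24 without any other sample, against 9.90 to 12.7%.

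The treated rats were compared with the sham-operated ones last. As deposited, the members' median log2 difference, PLM against JA, was 0.01, against −0.10 over all 15349 loci, with 38 values positive and 36 negative. The sign of this median was not stable: it was −0.0081, −0.0398 and 0.0721 without JA replicates 1, 2 and 3 and −0.0163, −0.0053 and 0.051 without PLM replicates 1, 2 and 3, with 30 to 51 values positive. No member passed at an adjusted p under 0.05 in limma, against 0.0195% of all loci. Of the members with an unadjusted p under 0.05, Rpl39 was higher and Rpl30 and Rps2 were lower, against 1.30% and 10.5% of all loci. Without JA replicate 3 there were 7 higher, against 1.63%. The count of 2 lower was 0 to 2 without any 1 sample, against 5.25 to 18.1%. All PLM samples lay above all JA samples in 2 members, Rpl39 and Rps21, against 2.00% of all loci, and below them in 5 (Rpl10a, Rpl36a, Rplp0, Rps2 and Rps27), against 15.7%. Rps2, Rps21 and Rpl10a were named after their values were seen. Rps27 had 1264, 1196 and 1169 TPM in PLM, and its log2 fold change against JA was −0.23 ± 0.10.

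Centred, the median of the members in PLM against JA was 0.13, against 0.03 over all loci, and 66 of the 74 values were positive. The groups did not overlap in 2 members, both higher in PLM, against 9.51% of all loci, and in 0 lower, against 6.93%. At an unadjusted p under 0.05, 2 were higher and 0 lower, against 5.26% and 4.72%. The count of 2 was 26 without JA replicate 3 and 8 without PLM replicate 3, against 7.90% and 5.21% of all loci, and 1 or 2 without any other sample, against 2.44 to 6.05%. None passed at an adjusted p under 0.05 in limma, against 0.0130%. Without JA replicate 3, the centred median was 0.24 and 43 members had all PLM samples above the remaining JA samples, against 19.6% of all loci. Without PLM replicate 3 there were 20, against 19.2%, and without any other sample 2 to 4, against 12.7 to 17.5%. As deposited, the count of 2 higher was 22 without JA replicate 3 and 11 without PLM replicate 3, against 4.36% and 4.08% of all loci, and the count of 5 lower was 6 to 10 over the 6 leave-outs, against 18.6 to 35.1%. The 3 comparisons share their groups, so they are not separate evidence of one pattern.

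**Figure D4:**
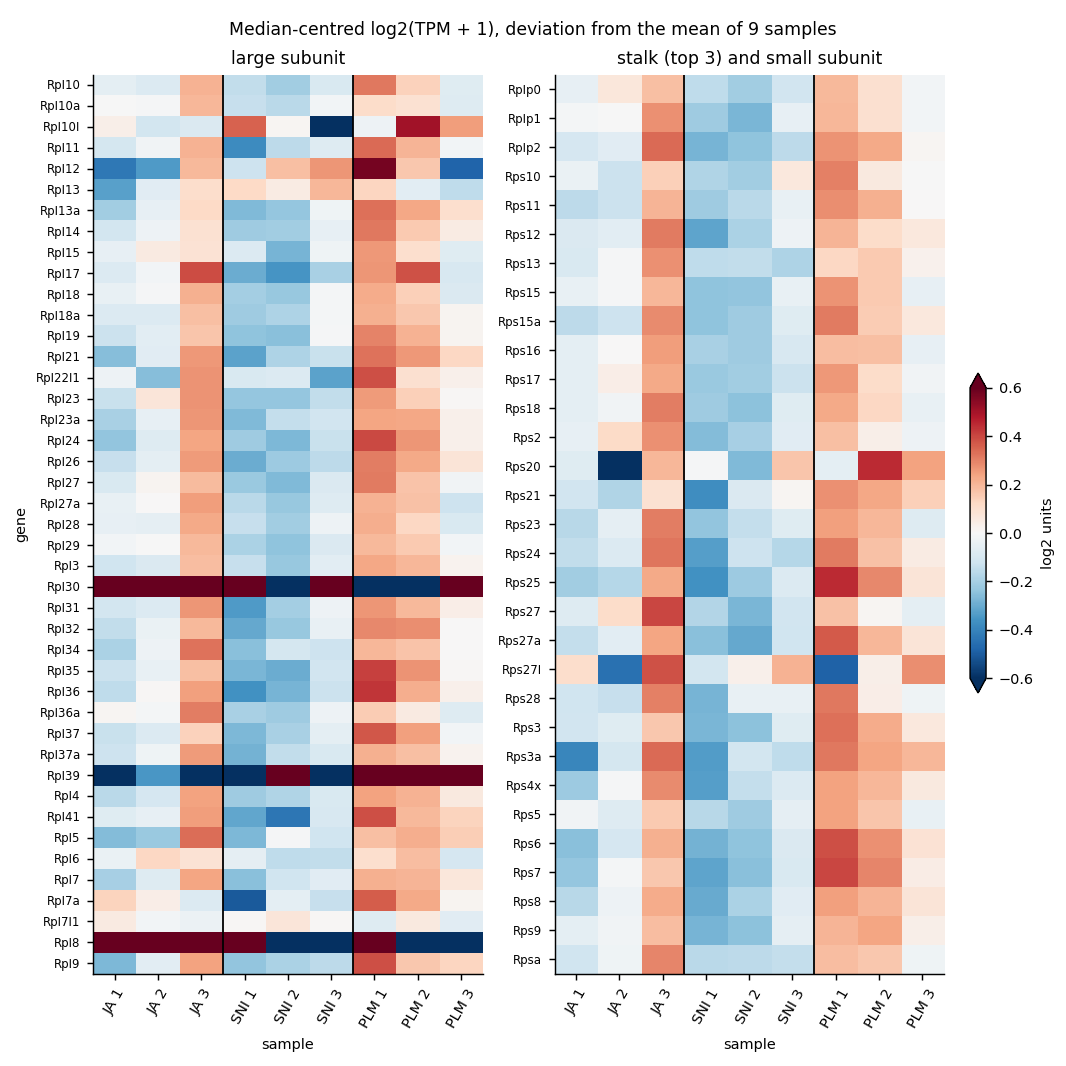
Median-centred log2(TPM + 1) of each ribosomal protein gene in each sample, as the deviation from its mean over 9 samples (red higher, blue lower, colours end at 0.6 log2 units). Most rows are blue in the SNI samples and red in JA replicate 3 and PLM replicates 1 and 2, while Rpl30, Rpl39, Rpl8, Rpl12 and Rps27l follow patterns of their own.

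Most members varied little between rats of a group. The median coefficient of variation within a group was 8.97% for JA, 5.71% for SNI and 5.92% for PLM, taken over the members, against 14.7, 10.7 and 9.61% for all loci of at least 1 TPM and 10.7, 6.89 and 5.49% for loci of at least 100 TPM. Rplp0 varied least, between 594 and 679 TPM over all 9 samples.

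A few members varied more. By the thresholds of the study's methods, an unadjusted p under 0.05 together with a log2 difference beyond 1 in either direction, 1 member passed in PLM against SNI (Rpl39), 1 in SNI against JA (Rpl8) and 2 in PLM against JA (Rpl30 and Rpl39), against 1.65, 0.688 and 0.938% of all loci. Rpl39, a very small protein of the exit tunnel, was listed at 0, 8.54 and 4.33 TPM in JA, at 0, 75.8 and 0 TPM in SNI and at 90.4, 147 and 113 TPM in PLM. Every PLM sample was above every other sample, and SNI replicate 2 was the only other one above 10 TPM. The fitted log2 fold change against SNI was 4.76 ± 1.65, with an adjusted p of 0.0935 in limma, and is no estimate of a fold, since it rests on listed zeros. Without SNI replicate 2 it was 6.85 with an adjusted p of 0.00143 in limma. Rpl8 was listed at 13.3, 11.4 and 3.94 TPM in JA, at 5.89, 0 and 0 TPM in SNI and at 8.40, 0 and 0 TPM in PLM.

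Rpl30 and a second locus had opposite levels. Rpl30, whose protein also regulates the splicing of its own transcript in yeast, was listed at 204, 176 and 284 TPM in JA, at 184, 2.24 and 225 TPM in SNI and at 2.85, 2.25 and 247 TPM in PLM. The locus LOC100362027 had 408, 376 and 531 TPM in JA, 416, 802 and 427 TPM in SNI and 795, 816 and 465 TPM in PLM. It was highest in the 3 samples where Rpl30 was near 0. The sum of both lay between 553 and 818 TPM, a range of 1.48 times, where Rpl30 alone spanned 127 times. The log2 fold change of Rpl30 in PLM against JA, −3.90 ± 1.59 with an adjusted p of 0.416 (limma), therefore belongs to 1 of these loci, and without PLM replicate 3 it was −5.94 with an adjusted p of 0.00419.

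Rpl12, which sits at the base of the stalk, showed opposite levels with LOC102555453. Rpl12 had 382, 380 and 525 TPM in JA, 495, 594 and 620 TPM in SNI and 629, 499 and 329 TPM in PLM. The other locus had 287, 294 and 162 TPM in JA, 148, 0 and 0 TPM in SNI and 0.34, 156 and 312 TPM in PLM. Their sum was 676 ± 9.07 TPM in JA, 619 ± 24.1 TPM in SNI and 642 ± 13.4 TPM for PLM (SD, n = 3 each), so the coefficient of variation over 9 samples went from 22.4% for Rpl12 to 4.50% for the sum. Both pairs were found after the values were seen, and the reference tables used here do not pair either LOC name with a ribosomal gene.

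Names listed at more than 1 locus gave further cases. The kept Rpl7a locus had 634, 556 and 487 TPM in JA, 427, 566 and 527 TPM in SNI and 610, 589 and 523 TPM in PLM, while the second had 59.3, 104 and 220 TPM, 248, 72.1 and 146 TPM, and 66.1, 90.0 and 85.3 TPM. Their sum was 687 ± 24.4, 662 ± 20.8 and 655 ± 39.9 TPM, with a coefficient of variation over 9 samples of 4.40% against 11.7% for the kept locus. Rps10, a small subunit protein near the mRNA entry, had 449, 395 and 454 TPM in JA, 428, 408 and 485 TPM in SNI and 468, 419 and 413 TPM in PLM at its kept locus. Its second locus had 34.6, 31.3 and 40.6 TPM in JA, 0, 26.7 and 0 TPM in SNI and 30.8, 81.9 and 29.1 TPM in PLM, and a fold change of that row alone would not be one of Rps10: the sum was 468 ± 36.5, 449 ± 31.4 and 481 ± 33.6 TPM. Rpl21 was different, since its 2 main loci ran in parallel, at 1175 and 776 TPM in JA, 1115 and 735 TPM in SNI and 1282 and 801 TPM in PLM. The second Rps27a locus was low, with 12.4, 13.4 and 13.8 TPM. The sequences of these loci were not compared, and how reads were divided between them was not tested.

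**Figure D5:**
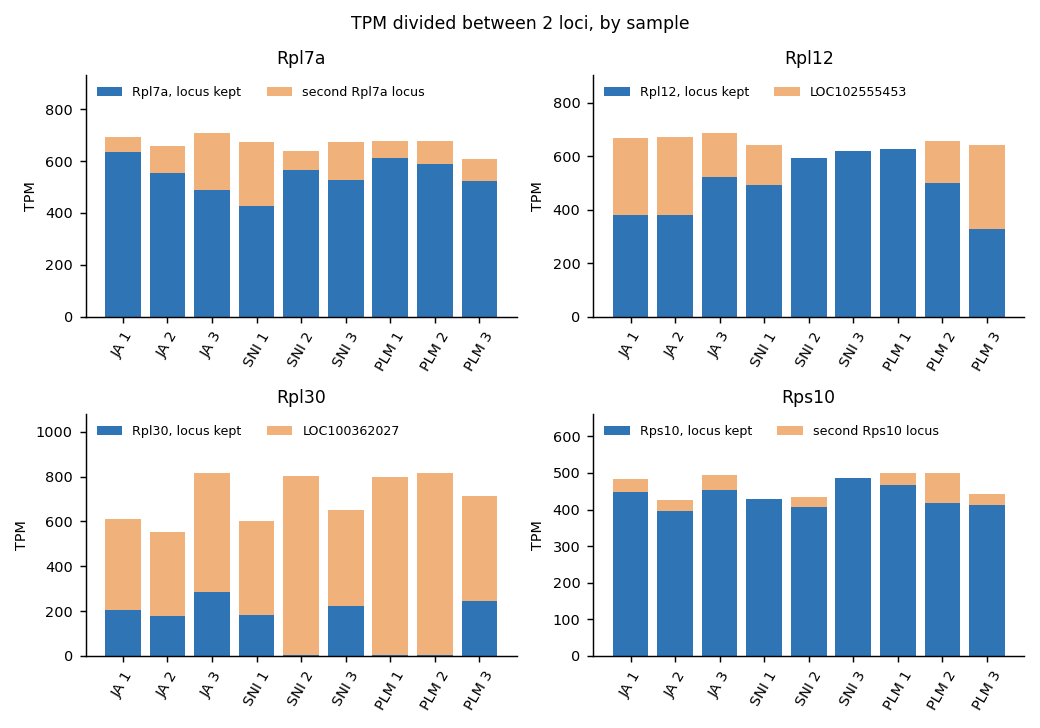
TPM of the kept locus (blue) and of a second locus (orange) stacked for each sample, for Rpl7a, Rpl12, Rpl30 and Rps10, on axes that start at 0. For Rpl12, Rpl7a and Rpl30 the height of the stack varies less than the kept locus, and for Rps10 it varies as much (coefficients of variation of 6.95% and 6.94%).

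Genes around the ribosome were followed through fixed lists. Among genes outside the name rule, Fau, whose product includes a small subunit protein, was listed at 0 to 0.20 TPM. Rpl36al, a copy of Rpl36a, had a log2 fold change in PLM against SNI of 0.13 as deposited and 0.38 centred, and Rack1, a scaffold on the small subunit, −0.05 and 0.20. Of 16 other genes with terminal oligopyrimidine tracts, mostly elongation and initiation factors, none was called, the median was −0.01 as deposited and 0.23 centred, and after centring 11 had all PLM samples above all SNI samples, where 14.1% of all loci did. Eef1a1, the main carrier of aminoacyl-tRNA, had 0.06 and 0.31, Tpt1, a growth-related protein, 0.10 and 0.35, Npm1, a nucleolar chaperone, 0.09 and 0.34, and Eef2, the translocase, −0.12 and 0.12. All 16 had positive centred values.

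Genes that build or regulate ribosomes were read next. Of 43 ribosome assembly genes, 2 passed as lower in PLM than in SNI as deposited and none higher, with a median of −0.14, or 0.10 centred with 8 not overlapping, all higher in PLM. Of 22 initiation factors, 2 were called lower, with a median of −0.17, or 0.08 centred with 8 higher without overlap. Of 16 mTORC1 and Myc pathway genes, 1 was called lower, with a median of −0.22, or 0.03 centred with 2 higher and 2 lower without overlap. Over all loci, 13.6% were called lower and 14.1% were higher and 9.73% lower without overlap after centring. Mtor had −0.16 as deposited and 0.09 centred, Larp1 −0.07 and 0.18, and Eif4ebp1, a translation repressor that mTORC1 inactivates, −0.20 and 0.04, none of them called. In SNI against JA no gene of these lists was called, and the centred medians were −0.09 for the 16 oligopyrimidine genes, −0.02 for assembly, −0.02 for initiation and 0.05 for the mTORC1 and Myc genes.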

How the data were processed

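According to the study's methods and the submitters' processing notes, the authors removed adaptors and reads of low quality (fastp 0.19.5), mapped reads with HISAT2 and computed expression with StringTie. The notes name GRCh38.p13, a human build, while the identifiers are rat genes, and the rat build is not given in the sources used here. The authors deposited 1 table of TPM with 2 decimals, scaled for length and to the same total per sample, for 3 JA, 3 SNI and 3 PLM samples. TPM is not a count, so DESeq2, which the authors used, was replaced by limma 3.58.1 (R 4.3.3, variance trend) on log2(TPM + 1). Pairs of groups were fitted over loci averaging 1 TPM or more in the 6 samples, with Benjamini-Hochberg adjustment over all loci and calls at an adjusted p under 0.05. Fold changes on this scale understate changes of low genes. Calling was tested on simulated data in which 200 loci were changed by 1 log2 unit. These data held no shift shared by most loci, so the test does not cover such a shift. Groups do not overlap where every sample of one exceeds every sample of the other.

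Named members (33) are the stalk genes, Rpsa, Rps27a, reference genes, Rpl36a, Rps4x, paralog pairs with both above 1 TPM, the 5 highest and 5 lowest fold changes of each comparison, the 5 highest and 5 lowest mean levels, and names at several loci. Members and lists were chosen with earlier results of these data known, and gene lists were written from general knowledge. Alternatives were median-centring, quantile normalization, removal of mitochondrial genes, a pseudocount of 0.1, other filters, 1 fit of all 9 samples, a replicate block, summed loci and leaving out each sample. Start sequences come from RefSeq (GRCr8). A planned description by protein length and paralog identity was not made, for want of a protein table. One listed gene is not reported here.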

Additional observations from a re-analysis of the deposited data

How the results depend on the processing

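In PLM against SNI, 2 members were called lower in the reported fit. The count was 2 with a pseudocount of 0.1, with 1 TPM in every sample and with same-name loci summed, and 3 centred on the members (with Rpl10a). It was 0 after median-centring, quantile normalization, removal of the mitochondrial protein genes, no filter, 1 fit of all 9 samples, the replicate block and the study's thresholds, and 0 without any 1 sample, centred or not. Members called higher numbered 1 with quantile normalization (Rpl26), 1 with the study's thresholds and 0 to 1 without 1 sample (Rpl39). The median log2 fold change of the members, 0.0725, was 0.32 centred, 0.18 with quantile normalization and 0.21 without mitochondrial genes. Centred, it was 0.28, 0.31 and 0.35 without SNI replicates 1, 2 and 3 and 0.27, 0.30 and 0.39 without PLM replicates 1, 2 and 3. In SNI against JA, the median of −0.0683 was −0.19 centred, −0.15 with quantile normalization and −0.16 without mitochondrial genes, and 1 member was lower by the study's thresholds. Centred, it was −0.15, −0.19 and −0.23 without SNI replicates 1 to 3 and −0.28, −0.22 and −0.10 without JA replicates 1 to 3. In PLM against JA, the median of 0.01 was 0.13 centred, and 0.12 without PLM replicate 2, 0.20 without PLM replicate 3 and 0.24 without JA replicate 3, the lowest such value being 0.07. The study's thresholds gave 1 higher and 1 lower, and leaving out 1 sample gave 0 to 1 in each direction. Without mitochondrial genes the mean share of TPM was 7.22% for JA, 6.39% for SNI and 7.59% for PLM. Centring on the members sets their median near 0 by construction (−0.054 for PLM against SNI and 0.014 for SNI against JA) and tests nothing about it. It and centring without 1 sample were added after seeing the data. Of the alternatives for named members, 2128 stayed on their side of the threshold, some uncalled values changing sign, 36 lost the calls of Rpl13 or Rpl7l1 and 6 gained one (Rpl26, Rpl30 or Rpl39). Why was not tested.

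Same-numbered samples of SNI and PLM did not deviate together (r = 0.03, −0.02 and −0.01 across loci), nor did all 3 pairs in either comparison with JA. There r was 0.13, −0.05 and 0.06 with SNI and −0.02, −0.01 and 0.10 with PLM. With 3 samples a group, these values cannot show whether the numbers pair the rats. With the replicate block, Rpl13 had an adjusted p of 0.146 and Rpl7l1 of 0.145 in limma, and no member was called. Depth is unknown, so no limit from counting can be given.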

Other observations

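Nuclear genes of other abundant housekeeping complexes were read in the same way, and their list medians after centring were below the 0.32 of the ribosomal protein genes. Of 74 mitochondrial ribosomal protein genes tested, which serve translation inside mitochondria, 4 passed as lower under PLM treatment than in SNI as deposited and 0 as higher, with a median log2 fold change of −0.10, or 0.14 centred, where 15 had all PLM samples above all SNI samples. Of 36 proteasome genes, 2 were called lower, with medians of −0.10 and 0.15, and 12 were higher without overlap after centring. Of 77 nuclear genes of the respiratory chain, 8 were called lower, with medians of −0.09 and 0.16, and after centring 11 were higher and 2 lower without overlap. The 13 protein genes of the mitochondrial genome went the other way as deposited: 8 were called higher, with a median of 0.33. Centred, their median was 0.58, none was called, and all 13 were higher in PLM without overlap. Over all loci tested, 13.6% were called lower and 0.246% higher as deposited, 14.1% were higher and 9.73% lower without overlap after centring, and the medians were −0.21 as deposited and 0.04 centred. Differences between these lists and the ribosomal protein genes were not tested.

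In SNI against JA no gene of these 4 lists was called, and the centred medians were 0.01, 0.00, −0.02 and −0.33 in the same order.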
